A study of Mus musculus with 40 samples.

Results

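Genes that are expressed mainly from 1 parental copy and that act on growth were examined in thigh skeletal muscle of adult sons on a diet high (HF) or low (LF) in fat, born to dams on either diet. The list names 10 imprinted growth genes: Igf2, Grb10, H19, Cdkn1c, Dlk1, Meg3, Peg3, Mest, Plagl1 and Ndn. Members were found as the probes whose platform annotation gives one of these symbols. Of the 10 genes, 8 had a probe on the Illumina array (12 of the 25697 probes), out of 16593 genes measured in all, whereas H19 and Meg3 had no probe under these symbols and were not analysed here. The samples came from 40 males of the inbred strain C57BL/6J (labelled C57BL\6), for which the labels name no engineered allele or drug, killed at 9 weeks of age, with 1 array per mouse. The 4 groups of 10 mice are named by the dam's diet followed by the son's own diet after weaning, the dams having eaten theirs from before mating until weaning. HF_HF mice had HF dams and ate HF, HF_LF mice had HF dams and ate LF, LF_HF mice had LF dams and ate HF, and LF_LF mice had LF dams and ate LF. The labels place the mice in 12 cages and do not name single dams, and per the study's methods more than 1 female was mated per cage and pup numbers were evened out.

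Imprinted genes carry DNA methylation set in the egg or the sperm, so that the copy from one parent is silent. As a class they are known for control of growth before and after birth, with paternally expressed genes such as Igf2 tending to promote growth and maternally expressed genes such as Grb10, H19 and Cdkn1c tending to restrain it. Many are highly active in fetal muscle and are turned down after birth, while Igf2 is known to take part in muscle differentiation and Grb10 in damping insulin signalling in muscle fibres. In the gene table of assembly GRCm38.p6, Igf2, H19 and Cdkn1c lie on chromosome 7 together with Peg3 and Ndn, Dlk1 and Meg3 share chromosome 12, and Grb10, Plagl1 and Mest lie on chromosomes 11, 10 and 6.

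Intensities were quantile-normalised and lay on a linear scale with an array median of 75.7 to 75.8. A probe was tested where 20 or more of the 40 arrays gave it a value above their own median, as held for 5 of the 12 member probes: those of Igf2, Grb10, Cdkn1c and Ndn in 40 of 40 arrays and the brightest of 3 Mest probes in 23 of 40. The arrays fell into 2 sets on the first principal component of the probes that were not tested (17 and 23 arrays), which the labels do not name and whose source is not known. Set 1 held 5 HF_HF, 6 HF_LF, 4 LF_HF and 2 LF_LF arrays. All 8 skeletal muscle markers passed the filter, and none of the lymphocyte markers did. In 3 arrays an immune marker score exceeded 1 on the log2 scale (LF_LF replicates 2 and 5 for all 5 measured lymphocyte probes, LF_HF replicate 6 for macrophage markers). Without these arrays, the changes of Grb10 and Igf2 with the sons' own diet were -0.28 and -0.18 on the log2 scale (adjusted p = 0.00328 and 0.00367), beside -0.27 and -0.19 with them.

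The first question was whether the members respond to the diet that the sons ate after weaning. Over all 40 mice, 2 of the 5 tested member probes fell with the HF diet at an adjusted p below 0.05, those of Igf2 and Grb10, in a comparison in which 7.76% of all 12467 tested probes were called and 3.3% were called lower. None of the members was called higher. The probes of Ndn and Cdkn1c had negative log2 changes that did not pass the adjusted threshold, and that of Mest had a positive one that did not. The median log2 change of the 5 probes was -0.13, beside -0.0052 over all tested probes, which gives the list's values and is not a test of the list.

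Igf2 encodes a secreted growth factor that signals through the IGF1 receptor and is expressed from the paternal copy. In sons of LF dams its normalised intensity was 634, 742 and 836 (lowest, median and highest of 10 mice) in LF_HF and 807, 871 and 970 in LF_LF. Of the 10 LF_HF mice, 7 lay below every LF_LF mouse and all 10 lay below the LF_LF mean. The mean was 750 ± 66.8 in LF_HF and 875 ± 46.2 in LF_LF (SD, n = 10 each), a log2 change of -0.22 ± 0.05 (SE) with an adjusted p of 0.0124 in limma. In this comparison 4.18% of all tested probes were called and 1.78% were called lower, and Igf2 was 1 of 5 member probes called. The call was lost with cage as a fixed block (-0.26, adjusted p = 0.184, 10 mice), without cage 4 (-0.20, adjusted p = 0.108) and without cage 11 (-0.24, adjusted p = 0.0918). In bulk muscle RNA, fewer cells of a type and less RNA per cell cannot be told apart.

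Sons of HF dams showed a smaller separation for Igf2. The intensity was 699.9, 811 and 968 in HF_HF and 766, 922 and 1100.2 in HF_LF, so that the groups overlapped over most of their ranges. Only 2 HF_HF mice lay below the lowest HF_LF mouse. The log2 change was -0.16 ± 0.06 with an adjusted p of 0.324 and was not called. Whether the HF diet acted differently on Igf2 in sons of HF and of LF dams was tested as an interaction of the diets, and the difference of 0.06 ± 0.08 on the log2 scale (adjusted p = 0.937) did not pass. Pooled over dams, Igf2 averaged 783 ± 79.2 in the 20 HF-fed mice and 895 ± 74.2 in the 20 LF-fed mice, a log2 change of -0.19 ± 0.04 (adjusted p = 0.00135, 19 of 20 HF-fed mice below the LF-fed mean).

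Grb10 encodes an adaptor protein that binds the activated insulin and IGF1 receptors and limits their signalling, and outside the brain it is expressed from the maternal copy. Its intensity was 384, 474 and 645 (lowest, median and highest) in HF_HF and 491, 633 and 733 in HF_LF. Of the 10 HF_HF mice, 7 lay below every HF_LF mouse, and 1 HF_HF mouse, replicate 1 at 645, stood far above the other 9. The mean was 479 ± 69.0 in HF_HF and 632 ± 75.0 in HF_LF (SD, n = 10 each), a log2 change of -0.40 ± 0.08 with an adjusted p of 0.0251. Of all tested probes, 0.361% were called here and 0.136% were called lower, and Grb10 was the 1 member among them. The call was lost with cage as a fixed block (-0.28, adjusted p = 0.205, 13 mice), without cage 21 (-0.35, adjusted p = 0.146) or 23 (-0.38, adjusted p = 0.311), and without HF_LF replicate 2 or 5 or HF_HF replicate 4 (-0.38, -0.38 and -0.40, adjusted p = 0.0502, 0.0617 and 0.0602).

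In sons of LF dams, Grb10 had intensities of 416, 519 and 582 in LF_HF and 454, 555 and 657 in LF_LF. These groups overlapped in most mice, with 3 LF_HF mice below the lowest LF_LF mouse. The log2 change was -0.14 ± 0.07 (adjusted p = 0.345). The difference between both responses, the interaction, was -0.27 ± 0.11 on the log2 scale with an unadjusted p of 0.0193 and an adjusted p of 0.908, so that a difference by dam's diet was not shown. Over all 40 mice Grb10 averaged 490.3 ± 62.1 in HF-fed and 591 ± 79.1 in LF-fed mice, a log2 change of -0.27 ± 0.06 (adjusted p = 0.00201, 19 of 20 HF-fed mice below the LF-fed mean).

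**Figure D1:**
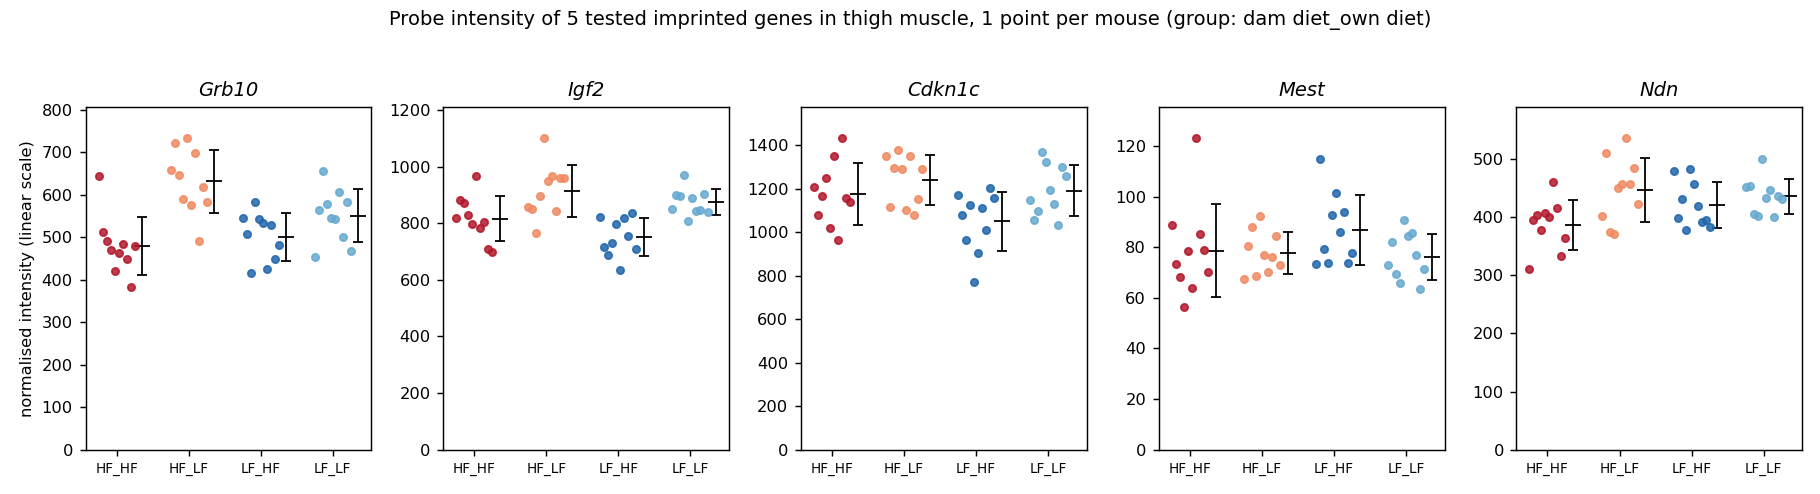
Normalised intensity (linear scale, vertical axis) of the 5 tested member probes in the 4 groups (horizontal axis, dam's diet first), with 1 point per mouse and the mean ± SD as a bar (n = 10). Grb10 is lowest in HF_HF and Igf2 is lowest in LF_HF, and for Mest 4 LF_HF mice lie above every LF_LF mouse while the groups overlap in the rest.

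Cdkn1c encodes an inhibitor of cyclin-dependent kinases that takes cells out of the cell cycle, also when myoblasts differentiate, and is expressed from the maternal copy. Its intensity was 769.9, 1095 and 1202 in LF_HF and 1032, 1172 and 1366 in LF_LF, a log2 change of -0.19 ± 0.07 with an adjusted p of 0.172. The groups overlapped, with 4 LF_HF mice below the lowest LF_LF mouse. In sons of HF dams the values were 966, 1162 and 1430.4 in HF_HF and 1077, 1291 and 1376 in HF_LF, a log2 change of -0.08 ± 0.07 (adjusted p = 0.720). The HF_HF range enclosed the HF_LF range on both sides. Pooled, the log2 change was -0.13 ± 0.05 with an unadjusted p of 0.0125 and an adjusted p of 0.105.

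Ndn encodes necdin, a paternally expressed protein that restrains cell division and in mice is known to act in muscle precursors. Its intensity was 311, 398 and 462 in HF_HF and 372, 454 and 536 in HF_LF. Of the HF_HF mice, 9 lay below the HF_LF mean but 7 remained within its range. The log2 change was -0.21 ± 0.07 with an adjusted p of 0.275. In sons of LF dams the values were 379, 409 and 483 in LF_HF and 401, 435 and 501 in LF_LF, with a log2 change of -0.05 ± 0.05 (adjusted p = 0.673). Pooled, Ndn averaged 404 ± 43.9 in HF-fed and 442 ± 43.5 in LF-fed mice, a log2 change of -0.13 ± 0.05 with an adjusted p of 0.0863.

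Mest encodes a protein of the alpha/beta hydrolase family, is expressed from the paternal copy and is known in mice for its rise in expanding fat tissue. The tested Mest probe was close to the array median in every group. It gave 73.2, 82.7 and 115 in LF_HF and 63.5, 74.9 and 90.6 in LF_LF, with 4 LF_HF mice above the highest LF_LF mouse. The log2 change was 0.18 ± 0.08 (unadjusted p = 0.0405, adjusted p = 0.261). The second of the 3 Mest probes, which did not pass the filter, had a log2 change of 0.11 ± 0.05 in that comparison (unadjusted p = 0.0478 in the fit without a filter, adjusted p = 0.449). The third and dimmest had 0.02 ± 0.05 in the same fit (unadjusted p = 0.637, adjusted p = 0.915). In sons of HF dams the tested probe gave 56.2, 75.9 and 123 in HF_HF and 67.6, 76.6 and 92.2 in HF_LF, and the medians lay within 1 unit of each other. Pooled over dams the log2 change was 0.09 ± 0.07 (adjusted p = 0.522). Since the lowest intensity in the table was 47.2, so dim a probe holds mostly background and its change is compressed.

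The remaining 7 probes, those of Dlk1, Peg3 and Plagl1 and 2 further Mest probes, were at or below the array median in most arrays and were not tested. Dlk1, a paternally expressed membrane protein that holds back the differentiation of fat cell precursors, ranged from 61.1 to 87.5 over the 40 mice. Peg3, a paternally expressed zinc finger protein found in muscle stem cells of mice, ranged from 65.0 to 92.1. The 3 probes of Plagl1, a paternally expressed zinc finger transcription factor of an imprinted gene network, ranged from 50.5 to 79.3 in all. When all 25697 probes were fitted without the filter, none of the 49 fits of these 7 probes (7 diet comparisons each) was called in limma. The log2 changes lay between -0.13 and 0.12, with 2 unadjusted p-values under 0.05 (both of the second Mest probe) and a lowest adjusted p of 0.438. At this signal a difference was not detected, which does not show that there was none.

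**Figure D2:**
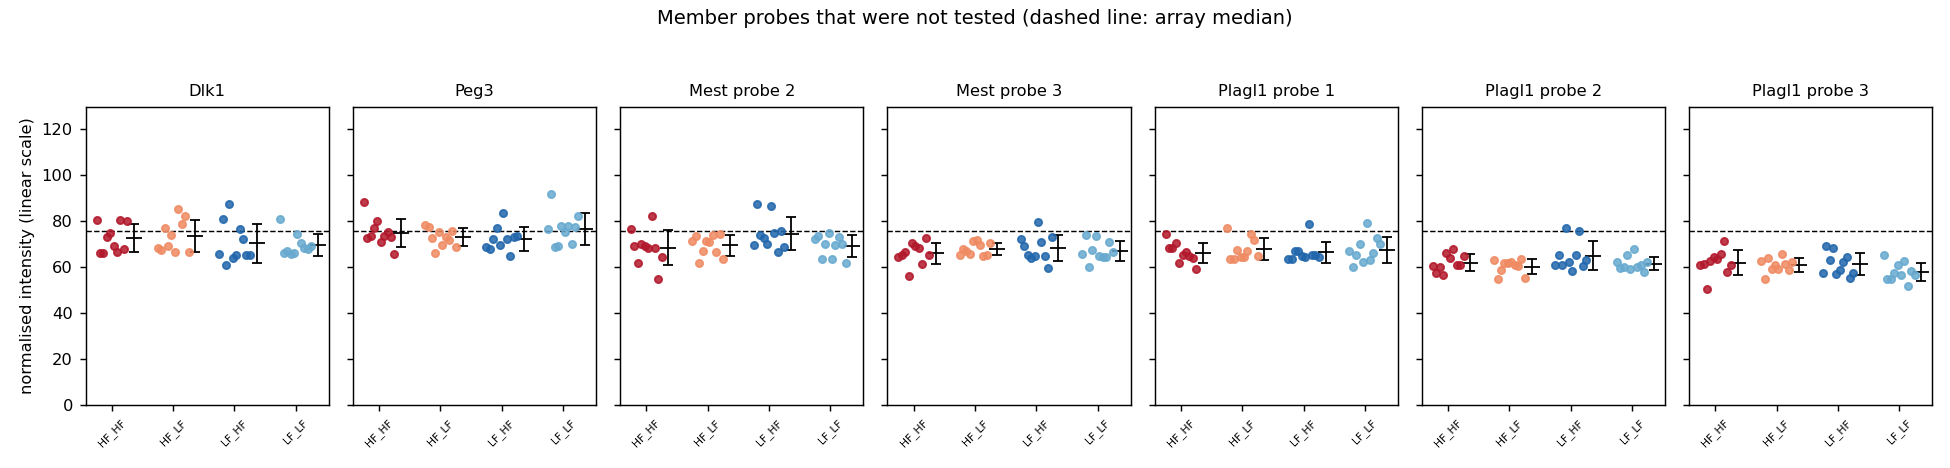
Normalised intensity (linear scale, vertical axis) of the 7 member probes that were not tested, by group (horizontal axis), with 1 point per mouse and the mean ± SD (n = 10). The dashed line is the array median of 75.7, and most points lie below it in every group of each panel, except for Peg3 in LF_LF (median 77.2).

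The second question was whether the dam's diet leaves a difference in these genes among sons on the same diet. No cage held sons of both HF and LF dams, so the dam's diet was compared between cages, while the p-values treat mice as independent. None of the 5 tested member probes was called in any of these comparisons. In HF_LF against LF_LF, 0.016% of all tested probes were called (2 of 12467). Grb10 had the lowest unadjusted p of the members there, with 491, 633 and 733 in HF_LF and 454, 555 and 657 in LF_LF and 4 HF_LF mice above the highest LF_LF mouse. Its log2 change was 0.20 ± 0.07, with an unadjusted p of 0.0133 and an adjusted p of 0.541. The other 4 members had unadjusted p-values between 0.276 and 0.672.

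In HF_HF against LF_HF, 0% of the tested probes were called, with 903 at an unadjusted p below 0.05. Cdkn1c gave 966, 1162 and 1430.4 in HF_HF and 769.9, 1095 and 1202 in LF_HF, a log2 change of 0.17 ± 0.08 (unadjusted p = 0.0473, adjusted p = 0.683). Of the HF_HF mice, 4 lay above the highest LF_HF mouse. Igf2 differed by 0.12 ± 0.06 (adjusted p = 0.716) and Ndn by -0.13 ± 0.07 (adjusted p = 0.728) on the log2 scale. Mest differed by -0.16 ± 0.11 (adjusted p = 0.809) and Grb10 by -0.07 ± 0.08 (adjusted p = 0.910). The intervals at 95% of these 5 changes reached at most 0.33 upward and -0.38 downward.

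With both groups of sons pooled, 0.594% of the tested probes were called for the dam's diet and none was a member. Igf2 averaged 866 ± 98.1 in the 20 sons of HF dams and 813 ± 84.9 in the 20 sons of LF dams, a log2 change of 0.09 ± 0.04 (unadjusted p = 0.0297, adjusted p = 0.434), with 14 of 20 above the mean of the others. Cdkn1c averaged 1208 ± 130.2 in sons of HF dams and 1120 ± 143 in sons of LF dams, a log2 change of 0.11 ± 0.05 (unadjusted p = 0.0327, adjusted p = 0.448). For both genes this sign was opposite to that of the HF diet after weaning, as it also was for Grb10 and Mest but not for Ndn. With each cage left out in turn, the change of Igf2 with the dam's diet ranged from 0.04 to 0.12. That of Cdkn1c ranged from 0.07 to 0.15, and neither was called in any of these fits. The log2 changes of Grb10, Ndn and Mest were 0.07 ± 0.06, -0.05 ± 0.05 and -0.06 ± 0.07 (adjusted p = 0.742, 0.763 and 0.798). For the interaction of both diets, 0% of the tested probes and no member was called, although 647 probes and 1 member (Grb10) had an unadjusted p below 0.05, and the next members were Ndn with -0.15 ± 0.09 and Mest with -0.19 ± 0.13 (adjusted p = 0.908 for both).

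**Figure D3:**
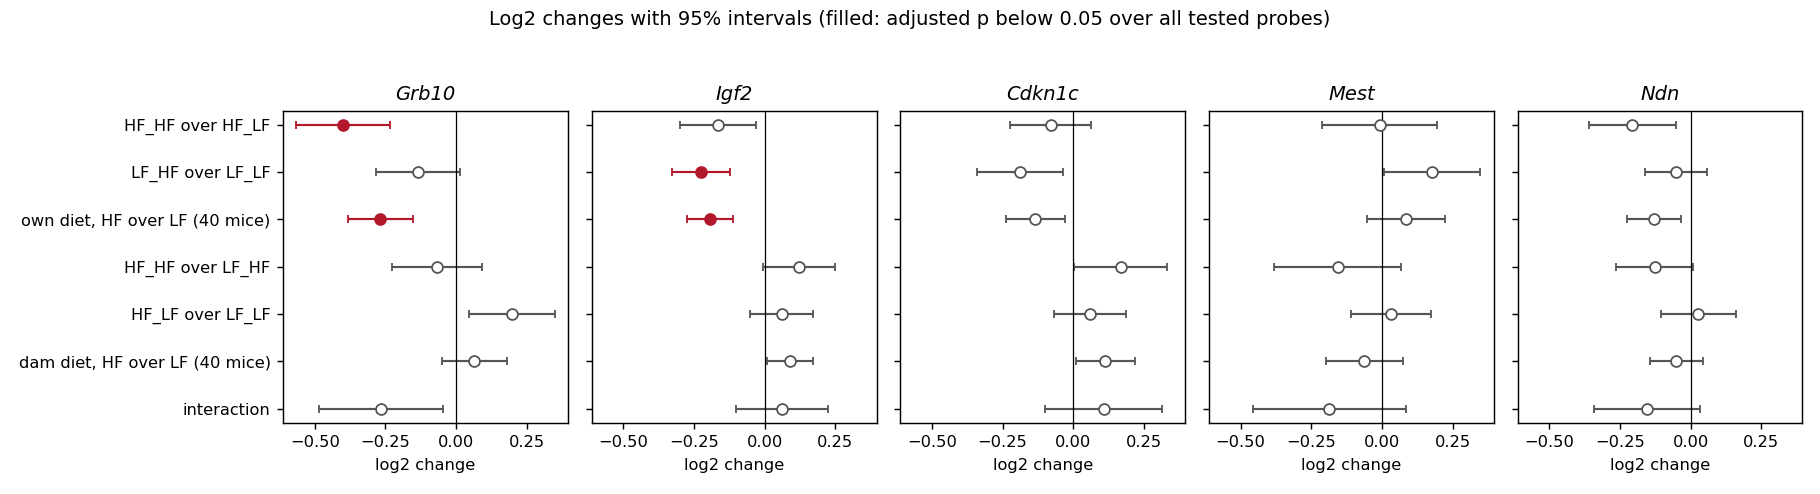
Log2 change (horizontal axis) with its 95% interval for the 5 tested member probes in the 7 diet comparisons (vertical axis), where filled points have an adjusted p below 0.05. The filled points are Grb10 in HF_HF over HF_LF (-0.40), Igf2 in LF_HF over LF_LF (-0.22) and both genes in the pooled comparison of the sons' own diet (-0.27 and -0.19), and no point of the dam's diet is filled.

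Mice of both post-weaning diets shared a cage number in 5 of the 12 cages (23 mice, 3 cages with HF dams and 2 with LF dams). Per the study's methods, males of a cage were split between the diets at weaning. A shared number is therefore not taken as shared housing after weaning. The mean of Grb10 was lower in HF-fed than in LF-fed mice in 5 of these 5 cages, by -0.09 to -0.44 on the log2 scale. In cage 23, its 3 HF-fed mice lay at 469 to 512 and its 3 LF-fed mice at 576 to 733. Igf2 was lower in 4 cages, where every HF-fed mouse lay below every LF-fed mouse, and did not differ in cage 20, where 3 HF-fed mice averaged 849 and 1 LF-fed mouse was at 845. In cage 4 Igf2 lay at 687 to 729.7 in 2 HF-fed mice and at 807 to 970 in 3 LF-fed mice. Ndn was lower in 5 of 5 cages, by -0.12 to -0.55. Its largest difference was in cage 10, where 1 HF-fed mouse at 311 stood against LF-fed mice at 402 and 511. Cdkn1c was lower in 4 cages and Mest in 2.

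With cage as a fixed block in these 23 mice, chosen after seeing the data, the log2 changes were -0.22 ± 0.07 for Grb10 (adjusted p = 0.0836), -0.19 ± 0.05 for Igf2 (adjusted p = 0.0579) and -0.23 ± 0.06 for Ndn (adjusted p = 0.0330). Here Ndn was called and Grb10 and Igf2 were not. Within the sets of arrays, Grb10 averaged 491 in 9 HF-fed and 605 in 8 LF-fed mice of set 1, and 489.5 in 11 HF-fed and 581 in 12 LF-fed mice of set 2. Igf2 averaged 761 in HF-fed and 905 in LF-fed mice of set 1, and 802 in HF-fed and 888 in LF-fed mice of set 2. Both genes were thus lower with the HF diet in either set, with an adjusted p of 0.335 for Grb10 and 0.144 for Igf2 in set 1 and of 0.0251 and 0.0790 in set 2. The Ndn change was -0.25 in set 1 (adjusted p = 0.166) and -0.04 in set 2 (adjusted p = 0.833), called in neither.

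**Figure D4:**
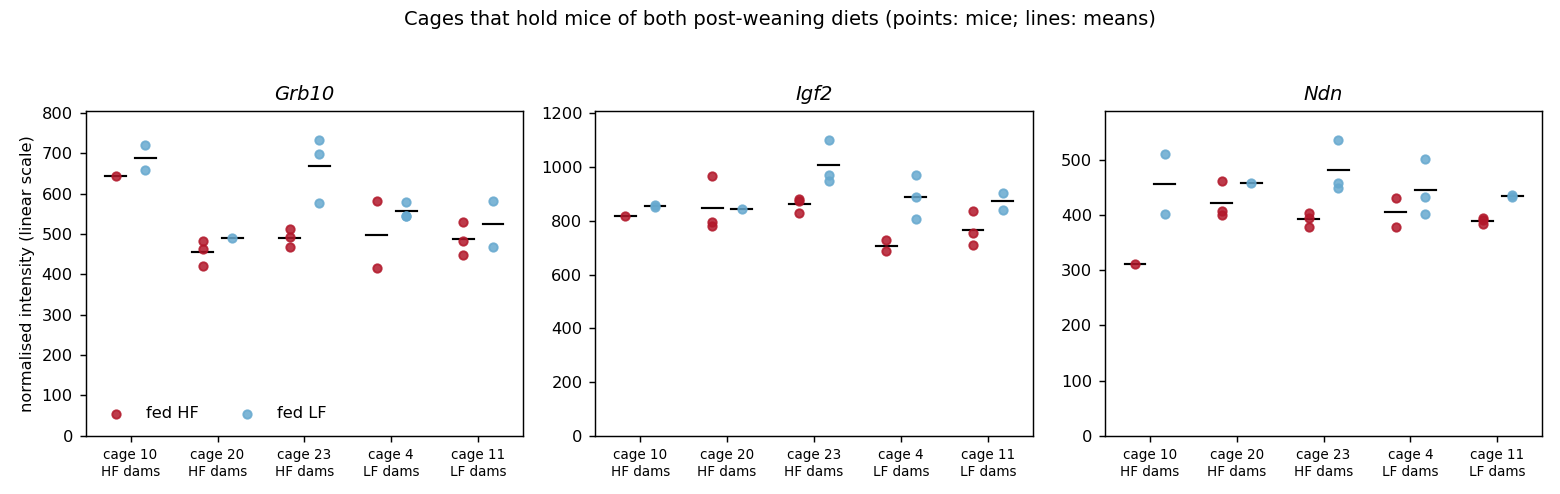
Normalised intensity (linear scale, vertical axis) of Grb10, Igf2 and Ndn in the 5 cages (horizontal axis) whose number mice of both post-weaning diets share, with 1 point per mouse and lines at the means. The HF-fed mean lies below the LF-fed mean of its cage for Grb10 and Ndn in 5 of 5 cages and for Igf2 in 4.

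Mean marker scores of some other tissue components differed between the groups, which was not tested. Values of selected scores stand here beside the members. A score is the mean log2 deviation of a list's tested markers from the mean of all 40 arrays. The slow fibre score (8 of 8 markers) averaged 0.67 in LF_HF, ranging from -0.38 to 1.57, and -0.37 in LF_LF, ranging from -1.64 to 1.48. In sons of HF dams it averaged -0.01 in HF_HF and -0.28 in HF_LF. With this score as a covariate the Igf2 change in LF_HF over LF_LF was -0.23 with an adjusted p of 0.0600, and the pooled Igf2 and Grb10 calls stood. The white adipocyte score (4 of 8 markers tested) averaged -0.20 in HF_HF, from -0.91 to 1.27, and 0.25 in HF_LF, from -0.55 to 1.30. With it as a covariate the Grb10 change in HF_HF over HF_LF was -0.33 with an adjusted p of 0.0711. In sons of LF dams the same score averaged -0.38 in LF_HF, from -0.98 to 0.53, and 0.34 in LF_LF, from -0.36 to 1.86. The LF_LF median was 0.04, with replicates 2 and 5 at 1.86 and 1.77. With the adipocyte score as a covariate the Igf2 change in LF_HF over LF_LF was -0.23 with an adjusted p of 0.0476.

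The fibroblast and mesenchymal progenitor score (7 of 8 markers) averaged -0.18 in HF_HF, from -0.66 to 0.30, and 0.14 in HF_LF, from -0.28 to 0.40. Ndn had a log2 change of -0.06 in HF_HF over HF_LF with this score as a covariate, beside -0.21 without it, neither of them called. In the same fit Grb10 changed by -0.36 (adjusted p = 0.284). Over all 40 mice and with this score, Grb10 kept its call (-0.24, adjusted p = 0.00668), as did Igf2 (-0.22, adjusted p = 0.000340), and Cdkn1c passed as well (-0.18, adjusted p = 0.0124), whereas Ndn was at -0.08 (adjusted p = 0.296), beside -0.13 without the score. The satellite cell and myoblast score (5 of 10 markers) stayed between -0.15 and 0.28 in all mice and averaged 0.06 in LF_HF and -0.05 in LF_LF. The part of cell content in the members' changes was not tested beyond these fits.

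The upstream sequences of both called genes are shown for their CpG content, because imprinting is tied to CpG methylation. They are the bases before annotated starts, and whether they lie in the control regions that set imprinting was not examined. RefSeq promoters (GRCm38.p6) were matched by symbol for 8 of the 10 members, with 15 starts, and the 250 bases before each start were searched for CG, which reads the same on both strands. Grb10 has 2 starts with 40 and 8 CG, and Igf2 has 4 with 22, 10, 6 and 1. As many as 40 CG stand before 1.31% of all 32851 starts and as many as 22 before 14.8%, the median is 6, and 92.1% hold at least 1. The start richest in CG is printed for each, 5′ to 3′ on the gene's minus strand with CG in capitals, for Grb10 at chr11:12037421-12037670 and for Igf2 at chr7:142658805-142659054. Which start the probes report on was not examined, and DNA methylation was not measured in these samples.
Grb10: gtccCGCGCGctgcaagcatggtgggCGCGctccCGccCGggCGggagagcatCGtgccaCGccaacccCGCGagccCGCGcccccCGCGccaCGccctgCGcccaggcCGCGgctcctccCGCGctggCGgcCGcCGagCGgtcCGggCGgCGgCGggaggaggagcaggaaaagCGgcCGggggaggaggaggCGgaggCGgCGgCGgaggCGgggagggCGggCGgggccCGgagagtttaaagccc
Igf2: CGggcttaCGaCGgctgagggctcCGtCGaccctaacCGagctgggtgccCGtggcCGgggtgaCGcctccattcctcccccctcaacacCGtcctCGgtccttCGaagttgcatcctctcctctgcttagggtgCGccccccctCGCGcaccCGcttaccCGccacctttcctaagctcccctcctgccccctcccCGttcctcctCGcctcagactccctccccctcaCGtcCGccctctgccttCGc

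Whether the members vary with the size of the mouse was examined within groups, as a log2 change per unit of the body measure. No member and 0% of the tested probes were called for the weight at 3 weeks, the later weight or the body length (38 mice with a length), while 570, 525 and 340 probes had an unadjusted p below 0.05. Igf2 had the lowest unadjusted p of the members for the later weight, with a slope of -0.03 ± 0.01 per g (p = 0.00677, adjusted p = 0.978), and for the length, with -0.03 ± 0.01 per mm (p = 0.0254, adjusted p = 0.999). The labels call the later weight a weaning weight, but it lay far above the weight at 3 weeks in every group (7.82 to 13.4 g over all mice), and it is taken here as a weight of the grown mice, which the labels do not state. It was 28.4, 30.0 and 34.1 g in HF_HF and 20.4, 24.7 and 25.8 g in HF_LF, and 27.2, 30.6 and 32.6 g in LF_HF and 23.4, 24.6 and 26.8 g in LF_LF, so that mice of the 2 diets after weaning did not overlap and a slope across diets could not be told apart from the diet.

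Variation between mice of a group was compared between members as log2 deviations from the group mean over 40 arrays. Of 10 pairs of the 5 tested probes, none passed for Pearson's r after adjustment over the pairs (two-sided permutation within groups). The pair of Cdkn1c and Mest came nearest, with r = -0.41 (permutation p = 0.0139, adjusted p = 0.139) and Spearman's rho = -0.47 (permutation p = 0.00375, adjusted p = 0.0375). Without the 2 mice farthest from the median of Cdkn1c, r was -0.31. The tested Mest probe was close to the array median and mostly background, which limits what its correlations show. Within the sets of arrays r was 0.0032 in the 17 mice of set 1 and -0.64 in the 23 mice of set 2, a difference that was not tested. Cdkn1c and Ndn had r = -0.31 (adjusted permutation p = 0.288) and rho = -0.29 (adjusted permutation p = 0.237), and r = -0.15 without the 2 mice farthest on Cdkn1c. The 2 genes with called changes, Grb10 and Igf2, had r = 0.20 (adjusted permutation p = 0.387) and rho = 0.20 (adjusted permutation p = 0.375), and r = 0.18 without the 2 mice farthest on Grb10.

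**Figure D5:**
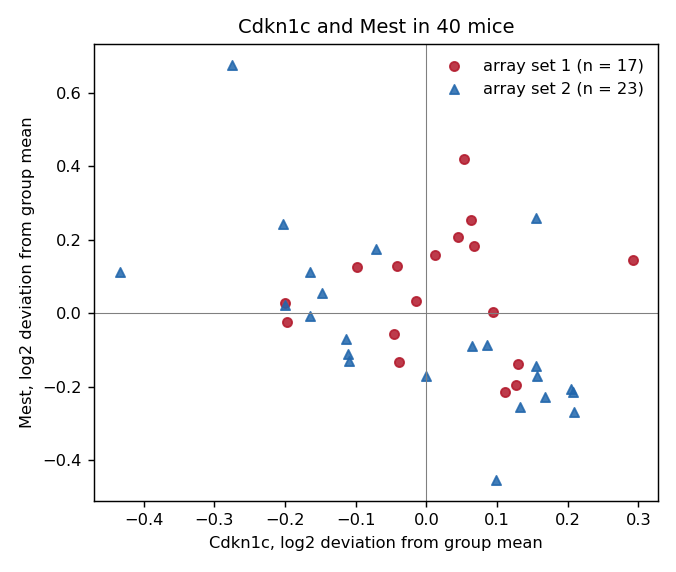
Log2 deviation from the group mean of Mest (vertical axis) against that of Cdkn1c (horizontal axis) in 40 mice, marked by array set. Pearson's r was -0.64 among the 23 mice of set 2 and 0.0032 among the 17 of set 1, and the difference was not tested. The Mest probe was close to the array median.

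Over the same deviations, the 3 other genes most like each member were taken by Pearson's r across the 40 arrays, as a description with no test. Nearest to Grb10 were Sesn1 (r = 0.67), a stress-induced regulator of mTORC1 signalling, Orc6 (0.65), a subunit of the origin recognition complex, and Shprh (0.60), a ubiquitin ligase of DNA damage tolerance. Of these, Orc6 also fell with the HF diet over all 40 mice (-0.12 ± 0.04, adjusted p = 0.0298). Nearest to Igf2 were Naa15 (0.66), Ntsr2 (0.65) and Cript (0.62), none of which was called for the sons' own diet. Cdkn1c was nearest to Gtf2f1 (0.73), Kctd20 (0.73) and Snx21 (0.70), and Snx21, a sorting nexin, rose with the HF diet (0.20 ± 0.05, adjusted p = 0.0113) where Cdkn1c had a negative change. Ndn was nearest to Hmgn3 (0.66), to Col6a1 (0.65), which encodes a chain of collagen VI, and to Fap (0.65), a surface protease of activated fibroblasts. The dim Mest probe was nearest to Casp4 (0.63), Oasl2 (0.60) and Clec4b1 (0.60).

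Other genes of the pathways were taken from lists chosen for their role, with earlier results of these data known. Their counts are a description and not a test of the lists. The IGF and insulin receptor axis held 22 genes, of which 17 were tested. In LF_HF over LF_LF, 2 of the 17 fell and 1 rose, beside the 4.18% of all probes called, and over all 40 mice 3 fell, beside the 3.3% of all probes called lower there. Igfbp5, which encodes an IGF binding protein abundant in muscle, gave 3663, 4253 and 4978 in LF_HF and 5279, 5776 and 6518 in LF_LF, and the groups did not overlap. Its log2 change was -0.45 ± 0.06 (adjusted p = 0.000101), and -0.41 ± 0.07 over all 40 mice (adjusted p = 6.52e-05). Ghr, the growth hormone receptor, fell in LF_HF over LF_LF by -0.38 ± 0.07 (adjusted p = 0.00319) and over all 40 mice by -0.30 ± 0.05 (adjusted p = 3.57e-05). Grb14, which encodes an adaptor closely related to Grb10, rose in LF_HF over LF_LF by 0.35 ± 0.08 (adjusted p = 0.0169), with 115, 148 and 171 in LF_HF and 86.9, 120.1 and 134 in LF_LF. Igf2bp3, which encodes an RNA-binding protein that binds Igf2 transcripts, was near the array median and fell by -0.09 ± 0.03 over all 40 mice (adjusted p = 0.0498). None of the 17 was called in HF_HF over HF_LF, for the dam's diet or for the interaction. In HF_HF over HF_LF 3 of 17 had an unadjusted p below 0.05, beside 11.4% of all tested probes, and for the interaction 0 of 17, beside 5.19%. For the dam's diet the counts were 4 in HF_LF over LF_LF (beside 8.21%), 1 in HF_HF over LF_HF (beside 7.24%) and 4 with sons pooled (beside 9.96%). With no call, a difference between sons of HF and LF dams was not shown for these genes. Igf2r, the receptor that clears Igf2, is in this list and among the maternally expressed genes below and was not called.

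Other imprinted genes were counted in the same way, beside the 7.76% of all tested probes called for the sons' own diet. Of 26 further paternally expressed genes 9 were tested, among them Snrpn, Peg10, Impact, Nnat and Slc38a4, and 0 were called in limma in any of the 7 diet comparisons (1 of the 9 had an unadjusted p below 0.05 in each), with a median log2 change for the sons' own diet of -0.03 beside -0.0052 over all tested probes. Of 28 further maternally expressed genes 13 were tested, among them Igf2r, Gnas, Kcnq1, Ube3a and Dcn, and 1 was called, for the sons' own diet, a count near that share over all tested probes. The gene was Ppp1r9a, which encodes the actin-binding protein neurabin, with 92.3, 115 and 136 in the 20 HF-fed mice and 110.5, 127 and 144 in the 20 LF-fed mice, a log2 change of -0.14 ± 0.04 (adjusted p = 0.0171). Some of the tested genes, Nnat, Mkrn3 and Kcnq1 among them, were close to the array median, which limits what could be seen of them. Imprinting of several genes of both lists is known from placenta or brain only, and the parental origin of the transcripts was not measured here.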

How the data were processed

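RNA of thigh muscle from each of 40 male mice was hybridised to Illumina MouseRef-8 v2.0 arrays, with 1 array per mouse. The authors used BeadStudio (version not given in the sources used here), quantile-normalised the signals of the 40 arrays and deposited probe intensity values on a linear scale. The largest difference between sorted arrays was 0.5, the lowest intensity was 47.2 so that no background appears to have been brought to 0, and 0 columns belonged to samples outside the labels. For arrays, the number of arrays (10 per group) limits the precision. P-values treat mice as independent, although cage numbers were shared. Replicate numbers only name mice.

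Gene symbols came from the platform annotation: 23978 probes had 1 symbol, 0 several and 1719 none. The members and gene lists were chosen with earlier results of these data known. Intensities were taken as log2 without an offset, and 12467 of 25697 probes passed the filter (above the array's own median in at least 20 arrays). Each comparison was fitted with limma 3.58.1 (R 4.3.3; lmFit and eBayes with an intensity trend), tested on simulated data beforehand. Comparisons of 2 groups used their 20 arrays, pooled comparisons and the interaction all 40. P-values are two-sided and adjusted by Benjamini-Hochberg over all tested probes, with calls below 0.05, and intervals are at 95%. Correlations used 100000 permutations within groups (numpy 2.4.6, scipy 1.17.1). Named genes were all members, for each tested member the 3 other genes with the highest r, and list genes that passed a diet comparison. Lists use 1 probe per gene, the brightest. Alternatives covered the filter, an offset of 50, a background subtraction (percentile 5 removed, 16 added), the variance trend, the array set, slow fibre and adipocyte scores, cage, all 40 arrays in 1 fit, and leaving out each array. Leaving out each cage, fits within an array set, without the 3 arrays high in immune markers, with the fibroblast score, and the cage block of the pooled comparison were chosen after seeing the data.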

Additional observations from a re-analysis of the deposited data

Results flagged for a closer look

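In 48 groups of 10 mice (12 member probes in 4 groups), the distance of the highest or lowest mouse to its nearest neighbour was set against the group's range, and 4 groups held a mouse that stood apart at a level that chance gives in about 1 in 20 groups. For Grb10, HF_HF replicate 1 was at 645 and the next mouse at 512, a gap of 0.510 of the range. For Mest, HF_HF replicate 7 was at 123 and the next at 88.9, a gap of 0.510 of the range. For Ndn, LF_LF replicate 5, which is 1 of the 3 arrays with a high immune marker score, was at 501 and the next at 454, a gap of 0.471. For the brightest Plagl1 probe, which was not tested, LF_HF replicate 7 was at 78.7 and the next at 67.3, a gap of 0.745.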

How the results depend on the processing

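The pooled calls of Igf2 and Grb10 for the sons' own diet held with every other filter, offset, background, variance trend, array set as a block, marker score, random cage block, left-out array and left-out cage that was run. They did not both hold in 3 fits chosen after seeing the data: with cage as a fixed block 1 member was called (Ndn), within array set 1 there were 0, and within array set 2 there was 1 (Grb10). The direction of both was negative in all of these.

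In LF_HF over LF_LF the number of members called was 0 in place of 1 with the slow fibre score, with cage as a fixed block (Igf2 -0.26, adjusted p = 0.184), without cage 4, without cage 11 and within array set 1 or 2, while the Igf2 change stayed at -0.20, -0.24, -0.21 and -0.23 in the last 4 (adjusted p = 0.108, 0.0918, 0.636 and 0.121). In HF_HF over HF_LF it was 0 in place of 1 with the white adipocyte or fibroblast score, with cage as a fixed block (Grb10 -0.28, adjusted p = 0.205), without cage 21, without cage 23 and within array set 1 or 2, while the Grb10 change stayed at -0.35, -0.38, -0.44 and -0.35 in the last 4 (adjusted p = 0.146, 0.311, 0.339 and 0.382). It ranged from 0 to 1 on leaving out single arrays: without HF_LF replicate 2 (0.0502), HF_HF replicate 4 (0.0602) or HF_LF replicate 5 (0.0617) Grb10 was not called. Ndn passed for the sons' own diet without LF_HF replicate 5 (0.0465), cage 1 (0.0331) or cage 9 (0.0362). Some of these fits held fewer mice and so fewer degrees of freedom, while those with a marker score held all mice of their comparison. Why the calls changed was not tested.

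Signs turned in 3 changes that were not called: Grb10 in HF_HF over LF_HF was 0.025 with the slow fibre score, Grb10 in LF_HF over LF_LF was 0.031 within array set 1, and Ndn in LF_HF over LF_LF was 0.0094 within array set 2. With deviations taken within array set, 1 pair of members passed for Pearson's r in place of 0, Cdkn1c and Mest (r = -0.47, adjusted permutation p = 0.0452). For Spearman's rho this pair passed already in the main setting (adjusted permutation p = 0.0375). With deviations taken within group and cage (38 mice), the pair did not pass for r (-0.51, adjusted permutation p = 0.159). Nor did it pass there for rho (-0.48, adjusted permutation p = 0.151). Mest was not in the fit that required all 40 arrays above the median. By replicate number, no paired analysis was possible because these numbers only name mice. Pairing by cage was possible in the 5 cages whose number mice of both diets share and is given above as the fixed block. Probes near the array median limit what could be seen of Dlk1, Peg3, Plagl1 and Mest.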

Other observations

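Genes that maintain imprints were also looked at in these muscles. Of 12 such genes 9 were measured and 5 were tested: Dnmt1, the maintenance DNA methyltransferase, Uhrf1, its cofactor, Trim28, a corepressor recruited to imprinted control regions, Ctcf, the insulator protein that binds between Igf2 and H19, and Dnmt3b. None of the 5 was called in any of the 7 diet comparisons in limma, with 1 of 5 at an unadjusted p below 0.05 for the sons' own diet, 2 in HF_HF over HF_LF, 1 in HF_HF over LF_HF and 0 in the other comparisons. Over all tested probes 21.1% had such a p and 7.76% were called for the sons' own diet. The share with such a p was 11.4% in HF_HF over HF_LF and 7.24% in HF_HF over LF_HF. Of the 5 genes, 4 were lower in HF_HF over HF_LF and 5 in HF_HF over LF_HF, beside 50.1% and 49.0% of all tested probes. Their median log2 changes there were -0.09 and -0.06. Whether the 5 genes differ as a set from other genes was not tested. The median log2 change of the 5 was -0.03 for the sons' own diet, beside -0.0052 over all tested probes, and -0.04 for the dam's diet, beside -0.00047 over all tested probes.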
